A study of Mus musculus with 12 samples.

Results

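The 5 genes described here make up the BAFF and APRIL system, a family of 2 ligands and 3 receptors of the tumour necrosis factor (TNF) superfamily. They were taken by name and not by a cutoff on measured values, although earlier results of these data were known when they were chosen. The rows of the deposited table were those named Tnfsf13b (BAFF), Tnfsf13 (APRIL), Tnfrsf13b (TACI), Tnfrsf13c (BAFF receptor) and Tnfrsf17 (BCMA). All 5 were found among its 34745 genes. The study asked what Qi-Jing-Sheng-Bai granule (QJSB), a herbal preparation, does to bone marrow in a mouse model of leucopenia. Total RNA of femoral bone marrow was sequenced from 12 male ICR mice, an outbred stock, 3 to a group. The normal group, 1 of 4, received no cyclophosphamide. Model, QJSB and leucogen mice all received cyclophosphamide, an alkylating drug that kills dividing cells, by intraperitoneal injection at 80 mg/kg per day on days 5 to 7. The model mice were otherwise given the vehicle by mouth, the QJSB mice the granule at 3 g/kg per day, and the leucogen mice leucogen, a drug against low white cell counts, at 20 mg/kg per day, over 1 week. The age of the mice was not stated in the labels. The deposited columns are headed Blank, Model, Positive and Stilbene, and the sense of these words, with elimination, gave the group of each (normal, model, leucogen, QJSB, in that order).

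BAFF and APRIL are cytokines made mainly by myeloid cells, stromal cells and dendritic cells. BAFF binds all 3 receptors, and through the BAFF receptor it keeps transitional and mature B cells alive by way of the non-canonical NF-kB pathway. APRIL binds TACI and BCMA, TACI limits B cell numbers and promotes class switching, and BCMA keeps plasma cells alive in the bone marrow. Marrow therefore holds both cells that make the ligands and cells that carry the receptors, and in RNA from whole marrow fewer cells of a type and less RNA per cell cannot be told apart.

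The genes lie at 5 places in the mouse genome, on build GRCm38 (mm10). In the deposited rows Tnfsf13b spans chr8:10006843-10035441 on the plus strand, Tnfrsf13b chr11:61126755-61149372 on the plus strand, Tnfsf13 chr11:69682846-69685784 on the minus strand, Tnfrsf13c chr15:82221744-82224339 on the minus strand and Tnfrsf17 chr16:11313812-11320074 on the plus strand. In GENCODE M21 the gene Tnfsf13b is longer than its row, at chr8:10006467-10039072, and Tnfrsf13c slightly longer, at chr15:82221743-82224369. The 250 bases before an annotated start are shown for the ligand and the receptor that differed most between groups and for the receptor that differed least, from RefSeq on GRCm38.p6, 5′ to 3′ on the strand of the gene. Capitals mark any match, on either strand, to 4 motifs. EBF, a factor of early B cells, was searched as CCCNNGGG, NF-kB as GGGNNTTTC and the interferon regulatory factors (IRF) as GAAANNGAA. The remaining motif was the GC box, GGGCGG. The windows are chr8:10006217-10006466 for Tnfsf13b, chr15:82224381-82224630 for Tnfrsf13c and chr11:61126505-61126754 for Tnfrsf13b.
Tnfsf13b: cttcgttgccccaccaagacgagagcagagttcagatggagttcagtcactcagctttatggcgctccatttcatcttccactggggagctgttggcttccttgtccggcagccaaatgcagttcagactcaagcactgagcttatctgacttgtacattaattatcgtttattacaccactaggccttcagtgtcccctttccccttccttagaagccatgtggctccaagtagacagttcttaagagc
Tnfrsf13c: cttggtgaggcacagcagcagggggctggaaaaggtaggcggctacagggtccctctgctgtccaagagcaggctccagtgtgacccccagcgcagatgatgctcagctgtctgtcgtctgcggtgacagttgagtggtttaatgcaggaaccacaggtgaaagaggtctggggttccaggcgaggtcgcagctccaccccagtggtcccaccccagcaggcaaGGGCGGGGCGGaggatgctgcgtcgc
Tnfrsf13b: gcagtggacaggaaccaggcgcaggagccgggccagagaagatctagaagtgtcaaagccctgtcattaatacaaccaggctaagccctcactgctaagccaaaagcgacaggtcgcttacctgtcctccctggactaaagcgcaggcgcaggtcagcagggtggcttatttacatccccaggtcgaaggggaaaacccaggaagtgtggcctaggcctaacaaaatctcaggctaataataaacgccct
The Tnfrsf13c window had 2 overlapping GC boxes, which begin 26 and 21 bases before the start, and the other 2 windows had no match. A GC box was found in 32.74% of the 32851 mouse promoter windows of this length, an EBF match in 11.82%, an NF-kB match in 3.72% and an IRF match in 7.13%. RefSeq gives Tnfsf13b a second start further downstream, whose window holds an IRF match that begins 16 bases before that start. The windows of Tnfsf13 and Tnfrsf17, which are not printed, hold 1 EBF match overlapping 1 GC box, and 1 IRF match and 1 GC box.

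Library totals ran from 11172547 to 18545198 counts. Levels are given as CPM, a library's counts scaled to a common total by the trimmed mean of M-values (TMM) over the 12 libraries. A gene is called changed between groups at a Benjamini-Hochberg adjusted p under 0.05 and a change over 1.5-fold in edgeR's quasi-likelihood test, fitted over all genes that passed its filter on low counts. Markers of neutrophils, erythroid cells and B cells all had counts in every normal library. The libraries model 1 and QJSB 1 stood apart in the summed CPM of 5 stromal markers, at 722.7 and 872.9 against 165.4 to 396.5 in the other 10 libraries. Between model and normal mice 2368 genes were called higher and 2803 lower, a split that total count scaling turned to 3026 higher of 5372 called.

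In the model mice BAFF ligand and BAFF receptor RNA were both far below normal, whereas TACI RNA was not lower. Of the 4 members that could be tested, 0 were called higher and 2 were called lower, Tnfsf13b and Tnfrsf13c. Over all 14752 genes tested, 16.1% were called higher and 19.0% lower.

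**Figure D1:**
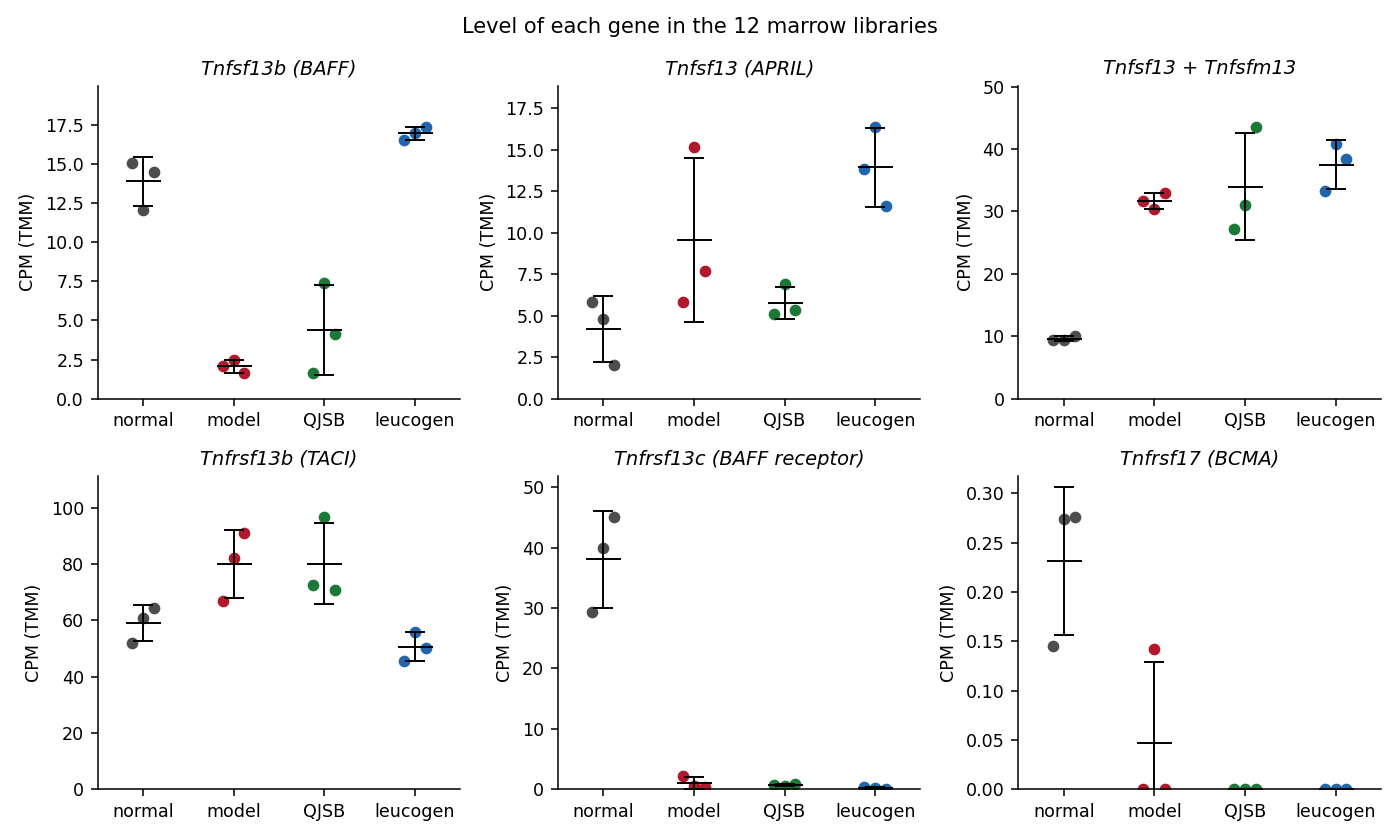
Level of each member, and of the sum of Tnfsf13 and the overlapping gene Tnfsfm13, in CPM (vertical axes from 0, a different scale in each panel) for the 3 libraries of each group (points), with the mean and SD (bars). Tnfsf13b lies between 12.1 and 15.1 CPM in normal mice and between 1.62 and 2.48 CPM in model mice, and Tnfrsf13c is near 0 in every mouse given cyclophosphamide.

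Tnfsf13b, which encodes BAFF, had 208, 176 and 210 counts in the normal libraries, 36, 35 and 28 in the model libraries, 31, 128 and 68 in the QJSB libraries and 208, 234 and 181 in the leucogen libraries. As CPM these were 15.1, 12.1 and 14.5 in normal mice, 2.08, 2.48 and 1.62 in model mice, 1.66, 7.40 and 4.14 in QJSB mice and 16.5, 17.0 and 17.4 in leucogen mice. Model mice were all below normal mice, the leucogen mice were all above them, and QJSB mice were spread from the model range to about midway. Groups did not overlap for 55.5% of all genes tested in model against normal and for 61.8% in leucogen against normal. The mean was 13.9 ± 1.59 CPM in normal mice and 2.06 ± 0.43 CPM in model mice (SD, n = 3 each). Tnfsf13b fell 6.72-fold in the model mice (log2 fold change -2.75, SE 0.23, edgeR adjusted p = 7.15e-05).

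Tnfsf13, which encodes APRIL, had a row of its own in the table that could not be read alone. The gene Tnfsfm13 (chr11:69682577-69696098) overlaps it on the same strand, a read-through unit that joins Tnfsf12 (TWEAK, a related ligand) and Tnfsf13 and shares exons with both. Tnfsf13 had 80, 70 and 29 counts in normal mice, 101, 214 and 133 in model mice, 95, 119 and 88 in QJSB mice and 174, 226 and 121 in leucogen mice. Tnfsfm13 had 49, 68 and 117 counts in normal mice, 448, 214 and 439 in model mice, 412, 418 and 628 in QJSB mice and 245, 338 and 279 in leucogen mice. Among the normal and the model mice, a library with few counts for one of the genes had many for the other, and Tnfsf13 took from 19.9% to 62.0% of the 2 genes' counts among the normal mice alone. In these groups the sums were steadier, at 129, 138 and 146 counts in normal mice and 549, 428 and 572 in model mice. In QJSB mice they were not, the sum being at 34.0 ± 8.56 CPM and Tnfsf13 alone at 5.78 ± 0.96 CPM (SD, n = 3). How the counting program, which is not given in the sources used here, assigned reads from shared exons was not tested.

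Taken alone, Tnfsf13 was at 4.20 ± 1.97 CPM in normal mice and 9.56 ± 4.95 CPM in model mice (SD, n = 3 each). The difference did not pass (log2 fold change 1.19, SE 0.47, edgeR adjusted p = 0.0791), although it passed with DESeq2 (1.18, DESeq2 adjusted p = 0.0299), with all 12 libraries in 1 edgeR fit (1.18, edgeR adjusted p = 0.0297), without the library model 1 (1.45, edgeR adjusted p = 0.0355) and at the cutoff of the study's methods, an unadjusted P under 0.05 with the same fold. That cutoff was passed upward by 17.9% of all genes. With Tnfsf13 and Tnfsfm13 summed into 1 row, a choice made after these counts had been seen, the level was 9.62 ± 0.39 CPM in normal mice and 31.7 ± 1.33 CPM in model mice. The sum was higher in all 3 model mice than in any normal mouse, and these groups did not overlap for 55.5% of all genes tested. The difference in the sum was 1.72 on the log2 scale (SE 0.14, edgeR adjusted p = 6.21e-05). Adding Tnfsf12 to the sum gave 1.59 (SE 0.15, edgeR adjusted p = 9.5e-05). Transcripts of the APRIL locus were thus more abundant in the model mice by this sum, but which of the overlapping genes they came from could not be told apart. The antisense gene Tnfsf13os, which overlaps on the other strand, had 5 to 20 counts in a library.

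Tnfrsf13c, which encodes the BAFF receptor, had 404, 582 and 653 counts in normal mice and 37, 8 and 6 in model mice. QJSB mice had 14, 8 and 14 counts and leucogen mice 5, 4 and 0. The gene went from 38.1 ± 8.04 CPM in normal mice to 1.02 ± 0.98 CPM in model mice (SD, n = 3 each), and no mouse given cyclophosphamide came near the lowest normal mouse. Tnfrsf13c fell 36.5-fold in the model mice (log2 fold change -5.19, SE 0.56, edgeR adjusted p = 0.000424). The library model 1 held most of what was left, 37 of the group's 51 counts, and without it the log2 fold change was -6.37.

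Tnfrsf13b, which encodes TACI, was the most abundant of the receptors in every group. It had 715, 886 and 933 counts in normal mice, 1158, 1156 and 1574 in model mice, 1354, 1669 and 1164 in QJSB mice and 573, 770 and 524 in leucogen mice. In CPM the normal libraries were at 51.8, 60.8 and 64.3, and the model libraries at 66.8, 81.9 and 90.8. All 3 model mice were above all 3 normal mice, but these groups did not overlap for 55.5% of all genes tested. The change was small and stayed under 1.5-fold (log2 fold change 0.44, SE 0.15, edgeR adjusted p = 0.0474), so Tnfrsf13b was not called. The nearest gene with counts, Usp22, a histone deubiquitinase, lies on the opposite strand beyond the end of Tnfrsf13b, at chr11:61151785-61175055. It is transcribed towards Tnfrsf13b and had 543 to 1655 counts in a library. Usp22 averaged 49.01 CPM in normal, 75.26 in model, 85.37 in QJSB and 57.24 in leucogen mice. Both genes thus averaged higher in model and QJSB mice than in normal and leucogen mice. Leucogen mice averaged above normal mice for Usp22 and below them for Tnfrsf13b. Whether reads from Usp22 were counted for Tnfrsf13b was not tested.

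Tnfrsf17, which encodes BCMA, had 2, 4 and 4 counts in normal mice, 0, 2 and 0 in model mice and 0 in all QJSB and leucogen libraries. It failed the filter in every comparison. In edgeR without that filter it passed the study's unadjusted cutoff downward in QJSB and leucogen mice against normal. There 17.1% and 17.8% of genes passed downward. It also passed with limma on log2(FPKM + 0.1) in all 3 groups given cyclophosphamide, as did 18.4% to 22.7% of genes. With DESeq2 it passed in QJSB mice, as did 16.4% of genes. At most 4 counts in a library lie behind these passes. A count of 0 allows up to 3 counts, or 0.161 to 0.288 CPM depending on the library, so the size of a difference in BCMA could not be told at this depth. These limits cover counting error only.

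**Figure D2:**
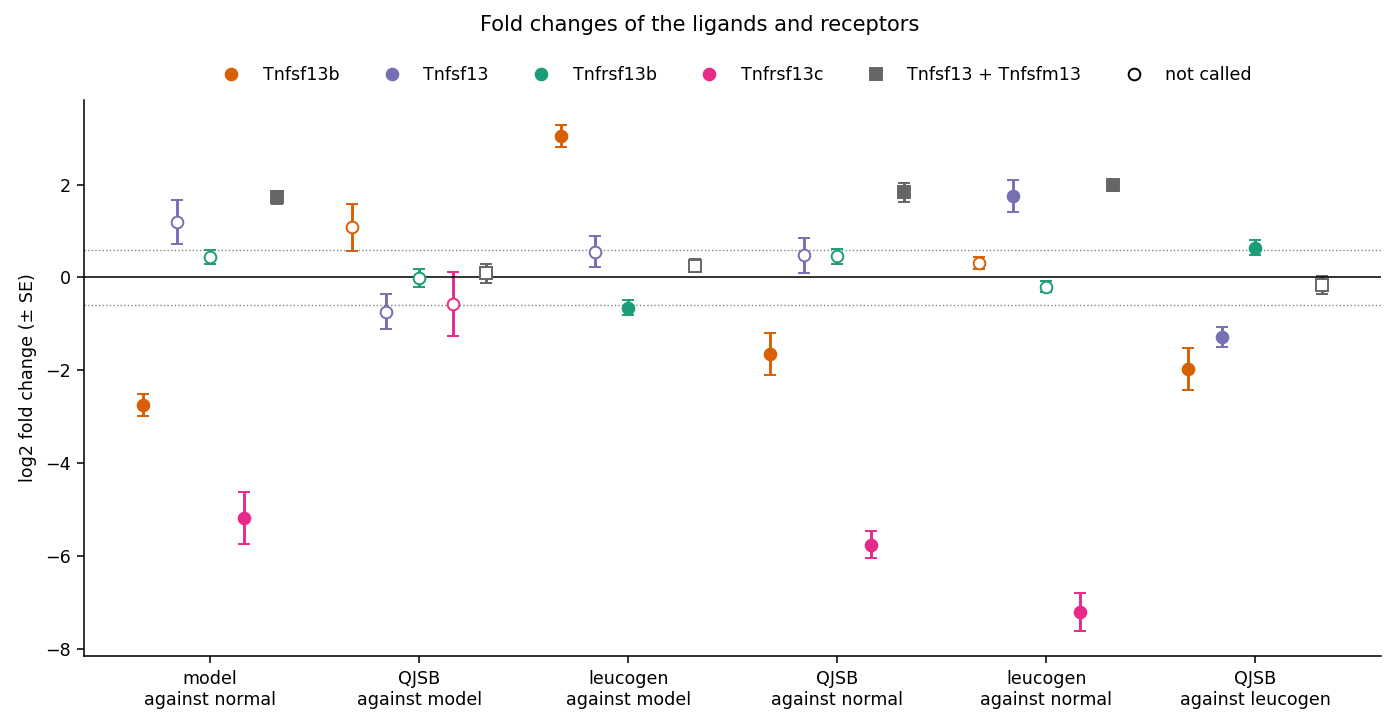
Fitted log2 fold change ± SE (vertical axis) of the members tested, and of the sum of Tnfsf13 and Tnfsfm13 (squares), in the 6 comparisons of 3 against 3 mice. Filled symbols were called, and dotted lines mark 1.5-fold. Tnfsf13b stands at -2.75 in model against normal and at 3.05 in leucogen against model, whereas Tnfrsf13c stays below -5 against normal in all 3 groups given cyclophosphamide.

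QJSB did not move any member past the test. Against the model group 0 of 4 members tested were called, and edgeR called 0% of all 14486 genes in either direction. At an unadjusted P under 0.05 with a change over 1.5-fold, 1.68% of genes were higher and 1.40% lower in edgeR, and again 0 members passed. That cutoff, the one in the study's methods, did depend on the tool. Tnfsf13b passed it upward with DESeq2, the tool named there (log2 fold change 1.10, DESeq2 adjusted p = 0.889), as did 1.81% of the genes DESeq2 tested. It also passed in edgeR with all 12 libraries in 1 fit (1.10, edgeR adjusted p = 0.379), where 2.83% of genes were higher, without a filter on low counts (1.08), without QJSB 1 and without both model 1 and QJSB 1. Blocking by replicate number let it pass too (0.89, edgeR adjusted p = 0.503). Tnfsf13 passed it downward with that block, without model 1 and without both libraries. After adjustment no member was called under any of these settings. Tnfsf13b averaged 4.40 ± 2.88 CPM in QJSB mice against 2.06 ± 0.43 in model mice (SD, n = 3 each). The log2 difference was 1.08 (95% interval -0.086 to 2.24, edgeR adjusted p = 0.767), and the groups overlapped, because QJSB 1 lay within the model range. This difference rested on single libraries, being 0.48 without QJSB 2 and 1.47 without QJSB 1 (edgeR adjusted p = 0.171), and it was also 1.47 with model 1 and QJSB 1 both left out (edgeR adjusted p = 0.237).

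The other members gave no clearer difference between QJSB and model mice. Tnfrsf13b averaged 80.03 ± 14.3 CPM with QJSB and 79.8 ± 12.1 CPM in model mice, a log2 difference of -0.013 with a 95% interval of -0.44 to 0.42 (edgeR adjusted p = 0.991). Tnfrsf13c differed by -0.58 with a wide interval of -2.15 to 0.98 (edgeR adjusted p = 0.851), and by 0.58 in the opposite direction without model 1. Tnfsf13 alone differed by -0.74 (95% interval -1.58 to 0.10, edgeR adjusted p = 0.767), whereas its sum with Tnfsfm13, at 34.0 ± 8.56 CPM in QJSB mice, differed by 0.085 (SE 0.21, edgeR adjusted p = 0.933). With these intervals, changes of 1.5-fold were not excluded for Tnfsf13b, Tnfsf13 or Tnfrsf13c.

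In leucogen mice BAFF ligand RNA was far above that of the model mice, and BAFF receptor RNA stayed far below normal. Of the 3 members tested against the model group, 1 was called higher and 1 lower, where 11.6% of 14184 genes were called higher and 11.5% lower. Tnfsf13b averaged 16.9 ± 0.43 CPM and rose 8.27-fold over the model group (log2 fold change 3.05, SE 0.23, edgeR adjusted p = 0.000946). It remained called whichever library was left out, at 2.93 to 3.23. Against normal mice it was 0.31 higher on the log2 scale (95% interval 0.0058 to 0.61, edgeR adjusted p = 0.0813), which did not pass.

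Tnfrsf13b moved the other way under leucogen. It stood at 45.5, 55.8 and 50.3 CPM, below all 3 model mice, where the groups did not overlap for 46.0% of all genes tested. It fell by 0.65 on the log2 scale against the model mice (SE 0.16, edgeR adjusted p = 0.0173). The call was lost without model 3 (-0.53, under 1.5-fold), without leucogen 1 (edgeR adjusted p = 0.0804) and without leucogen 3 (edgeR adjusted p = 0.079). Tnfrsf13c had 5, 4 and 0 counts, too few for the filter, against 37, 8 and 6 in model mice, and an exact two-sided permutation test gave p = 0.2, where 0.1 is the smallest that 3 against 3 can give. It passed the study's unadjusted cutoff downward with DESeq2, in edgeR without the filter and with all 12 libraries in 1 fit. In these settings 10.3%, 12.3% and 15.8% of genes passed downward. Tnfsf13 differed from the model group by 0.56 (edgeR adjusted p = 0.247), and by 1.08 without model 2 (edgeR adjusted p = 0.0143), while the sum with Tnfsfm13 differed by 0.25 (SE 0.14, edgeR adjusted p = 0.219).

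Set against normal mice, which also serve as the reference of the model group, the treated groups kept the loss of the BAFF receptor. In QJSB mice 2 of 4 members were called lower and 0 higher, against 19.9% and 18.0% of 14817 genes. Tnfrsf13c fell by 5.76 on the log2 scale in QJSB mice, whose mean was 0.689 CPM against 38.1 CPM in normal mice (edgeR adjusted p = 1.29e-05). Tnfsf13b was also lower, with a log2 fold change of -1.65 (SE 0.46, edgeR adjusted p = 0.0211), a call lost without normal 1 (edgeR adjusted p = 0.065), normal 3 (edgeR adjusted p = 0.0599) or QJSB 3 (edgeR adjusted p = 0.0656). In leucogen mice 1 of 4 members was called higher and 1 lower, against 17.8% and 19.8% of 14637 genes. The one that fell was Tnfrsf13c, with 9 counts in the group against 1639 in the normal group (log2 fold change -7.21, edgeR adjusted p = 2.23e-06). The one that rose was Tnfsf13 (1.76, SE 0.34, edgeR adjusted p = 0.00291).

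The sum of Tnfsf13 and Tnfsfm13 stood above normal in all 3 groups given cyclophosphamide. It averaged 9.62 CPM in normal mice, 31.7 in model mice, 34.0 in QJSB mice and 37.5 ± 3.88 in leucogen mice. Its log2 difference from normal was 1.83 in QJSB mice (SE 0.20, edgeR adjusted p = 0.000341) and 1.98 in leucogen mice (SE 0.12, edgeR adjusted p = 9.34e-07). The 3 comparisons share the normal mice. With the summed row in place of Tnfsf13, 3 members rather than 2 were called in model against normal and in QJSB against normal.

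The 2 treatments differed from each other in the BAFF ligand and in TACI. Between QJSB and leucogen mice 1 of 3 members was called higher and 2 lower, where 12.9% of 14266 genes were called higher and 11.7% lower. The 2 groups did not overlap for 48.8% of these genes. Tnfsf13b was lower in all 3 QJSB mice than in any leucogen mouse, by a log2 fold change of -1.97 (SE 0.45, edgeR adjusted p = 0.0161). That call was lost without leucogen 1 (edgeR adjusted p = 0.0509), leucogen 3 (0.0565) or QJSB 3 (0.0537). Tnfrsf13b was higher with QJSB by 0.64 (SE 0.16, edgeR adjusted p = 0.0183), and lost its call without leucogen 1 (edgeR adjusted p = 0.0792), leucogen 3 (0.0741) or QJSB 2 (0.50, under 1.5-fold). Tnfsf13 alone was lower with QJSB (-1.29, SE 0.22, edgeR adjusted p = 0.0051), but the sum with Tnfsfm13 was not (-0.16, SE 0.20, edgeR adjusted p = 0.574). Tnfrsf13c failed the filter here. Its counts were 14, 8 and 14 with QJSB and 5, 4 and 0 with leucogen, without overlap (exact two-sided permutation p = 0.1).

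The balance among members changed within each library. In normal mice there were 56.5, 65.7 and 70.0 Tnfrsf13c counts for each 100 Tnfrsf13b counts. In model mice there were 3.20, 0.692 and 0.381, in QJSB mice 1.03, 0.479 and 1.20, and in leucogen mice 0.873, 0.520 and none. TACI thus held nearly all counts of the 3 receptors in every mouse given cyclophosphamide. For the ligands, Tnfsf13b counts for each 100 counts of Tnfsf13 and Tnfsfm13 together were 161, 128 and 144 in normal mice, 6.56, 8.18 and 4.90 in model mice, 6.11, 23.8 and 9.50 in QJSB mice and 49.6, 41.5 and 45.3 in leucogen mice. The leucogen libraries lay between the normal libraries and those of the other 2 groups, without overlap.

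Levels of different genes were compared as CPM per kilobase of the merged exons of protein-coding transcripts (GENCODE M21) inside the span of the deposited row. The deposited FPKM, a count divided by gene length and library size, was not used for this, because it implied a length of 3685 bases for Tnfrsf13c, more than the 2596 bases of its row's span, and of 930 bases for Tnfsf13b, which is its coding length. In normal mice the order was Tnfrsf13b at 22.4 ± 2.46, Tnfrsf13c at 18.9 ± 3.98, Tnfsf13b at 14.9 ± 1.71, Tnfsf13 at 2.56 ± 1.20 and Tnfrsf17 at 0.284 ± 0.092 CPM per kilobase (SD, n = 3). Neighbours among the first 3 lay within their spread. In model mice Tnfrsf13b was at 30.4 ± 4.62, Tnfsf13 at 5.84 ± 3.02, Tnfsf13b at 2.21 ± 0.47 and Tnfrsf13c at 0.504 ± 0.484 CPM per kilobase. Leucogen mice had Tnfrsf13b and Tnfsf13b at nearly the same level per length, 19.2 ± 1.96 and 18.2 ± 0.46 CPM per kilobase. These comparisons depend on the length used. The deposited FPKM implied 4727 bases for Tnfrsf13b and 2576 for Tnfsf13, where the merged exons had 2626 and 1637. By that FPKM Tnfrsf13b was below Tnfsf13b, at 10.2 against 17.4 in leucogen mice and 12.2 against 14.6 in normal mice.

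The receptors were then set beside markers of the B lineage. The summed CPM of 8 mature B cell markers, all of them detected in each normal library, ran from 1170 to 1236 in normal mice. It was 52.0, 18.1 and 10.8 in model mice, 6.76 to 14.4 in QJSB mice and 6.19 to 7.87 in leucogen mice. Ms4a1, which encodes the B cell surface protein CD20, had at least 2866 counts in a normal library, 4, 0 and 0 in model mice and at most 3 in a leucogen library. Of the 8 markers, 0 to 2 were at 0 in a model library, 1 to 5 in a QJSB library and 2 to 5 in a leucogen library. The summed level of 7 pre-B cell markers went from 410.9 to 598 CPM in normal mice to 173, 52.0 and 16.04 CPM in model mice.

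Tnfrsf13c went down together with these markers, and the highest model library was model 1 for both. Tnfrsf13b did not, since it stayed between 45.5 and 96.5 CPM in the 9 mice given cyclophosphamide while mature B cell markers were at most 52.0 CPM in sum. Of 8 plasma cell markers 5 were called lower and 1 higher in model against normal, with a median log2 fold change of -2.07. Jchain, the joining chain of antibodies, fell from 36.1 to 60.2 CPM in normal mice to 0.865 to 4.04 CPM in model mice. The one called higher was Xbp1, a factor of the secretory pathway that is not limited to plasma cells, which went from 81.8 to 90.6 CPM to 227 to 399 CPM. Markers of promyelocytes, early granulocyte precursors, summed to 739.8 to 950.6 CPM in normal mice and 6591 to 9476 CPM in model mice. The part of these cell types in the receptor levels was not tested.

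**Figure D3:**
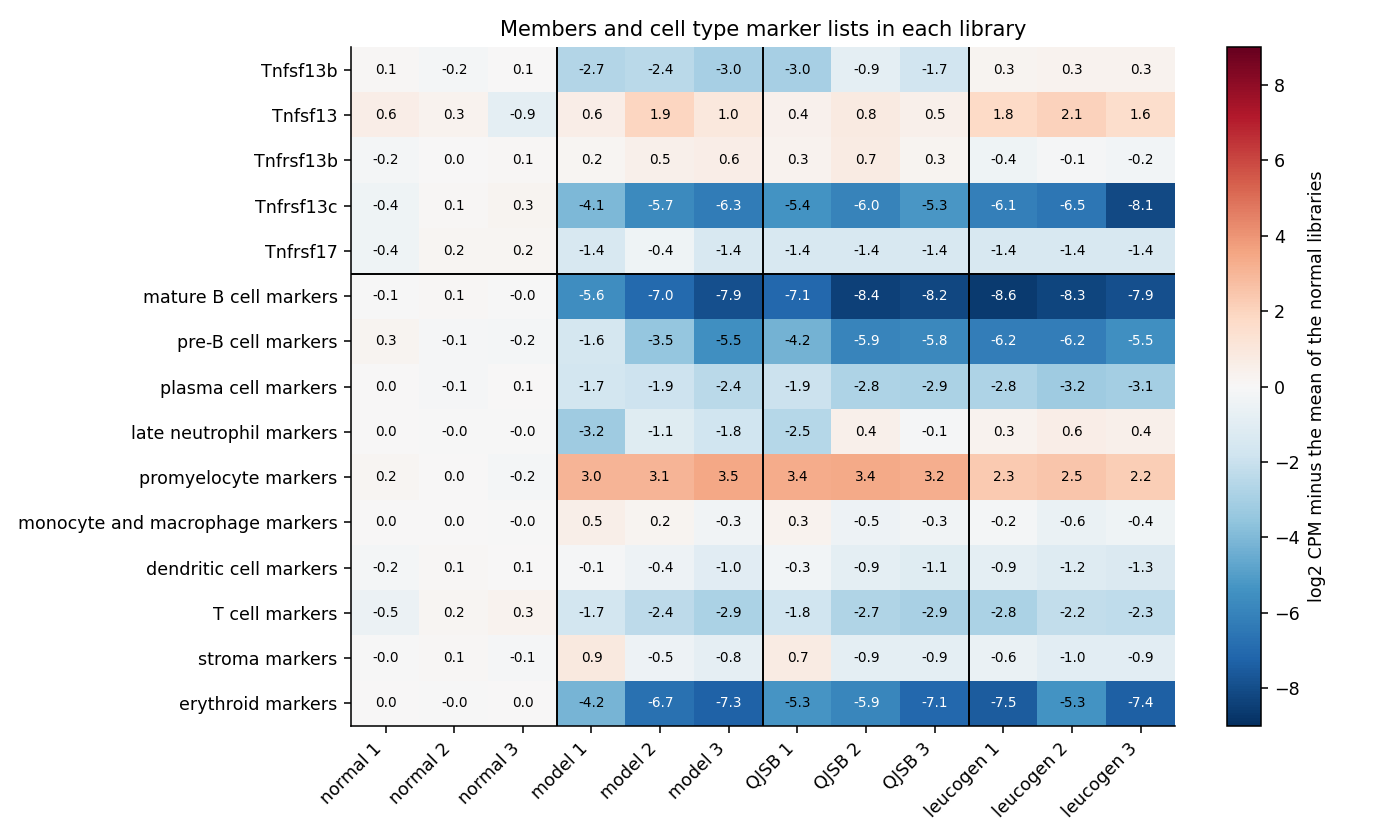
Log2 CPM (prior count 2) of each member and mean log2 CPM of each cell type marker list, in the 12 libraries (columns), minus the mean of the 3 normal libraries. Tnfrsf13c and the mature B cell, pre-B cell and erythroid markers are low in all 9 libraries from mice given cyclophosphamide, whereas Tnfrsf13b changes little. Tnfsf13b is low in model mice and slightly above normal in leucogen mice.

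The BAFF ligand was set beside markers of late neutrophils, cells that store BAFF. The summed CPM of 8 such markers was 9077 to 9384 in normal mice, 1732, 5118 and 4057 in model mice, 2823, 15920 and 10380 in QJSB mice and 12470 to 16170 in leucogen mice. Of the 8, 4 were called lower and 0 higher in model against normal, where 19.0% of all genes were called lower and 16.1% higher. In leucogen against model 5 were called higher and 0 lower, where 11.6% of all genes were called higher and 11.5% lower. Within the QJSB group the order of Tnfsf13b, 1.66, 7.40 and 4.14 CPM, was that of the neutrophil markers. Within the normal, the model and the leucogen group the orders differed, Tnfsf13b being at 2.08, 2.48 and 1.62 CPM in model mice. By the summed CPM of the neutrophil markers, QJSB 2 and QJSB 3 lay above every normal mouse, but the markers were split. In QJSB 2, 4 of the 8 were above every normal mouse and 2 below, and in QJSB 3, 4 were above and 4 below, with Ltf, Ngp, Cd177 and Cxcr2 above and Mmp8 and Retnlg below in both. The mean log2 CPM of the 8 markers was 10.27 in QJSB 2 and 9.71 in QJSB 3 against 9.81 to 9.85 in normal mice. Tnfsf13b was at 7.40 and 4.14 CPM in these libraries against at least 12.1 in normal mice. Monocyte and macrophage markers, 7 genes, summed to 375.8 to 466.5 CPM in normal mice, 487.2 to 829.1 in model mice, 338.2 to 628.5 in QJSB mice and 449.8 to 733.7 in leucogen mice. These markers were split too. In model against normal 3 were called higher and 1 lower, where 16.1% of all genes were called higher and 19.0% lower. In leucogen against normal 2 were called higher and 3 lower, with a median log2 fold change of -0.55. There 17.8% of all genes were called higher and 19.8% lower. Ccr2 alone was at 294.1 to 548.3 CPM in leucogen mice. Dendritic cell markers, 6 genes, were 78.4 to 94.1 CPM in normal, 102.2 to 210.4 in model, 127.4 to 152.5 in QJSB and 46.2 to 47.3 in leucogen mice. Flt3 held most of this sum in model mice, at 80.8 to 172.6 CPM against 25.0 to 37.5 in normal mice. Itgax and Zbtb46 were lower in every model mouse than in any normal mouse. Of 5 dendritic cell markers tested in model against normal, 1 was called higher and 2 lower, with a median log2 fold change of -0.22. In QJSB against normal 1 was called higher and 3 lower, with a median of -1.45. T cell markers, 6 genes, were 28.0 to 42.9 CPM in normal, 7.96 to 10.3 in model, 7.92 to 13.7 in QJSB and 13.8 to 17.1 in leucogen mice. Among them Cd3d had the QJSB order of Tnfsf13b, at 1.40, 11.2 and 4.51 CPM, and Cd3e did not, at 1.34, 0.347 and 0.244. The part of these cell types in the level of Tnfsf13b was not tested.

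**Figure D4:**
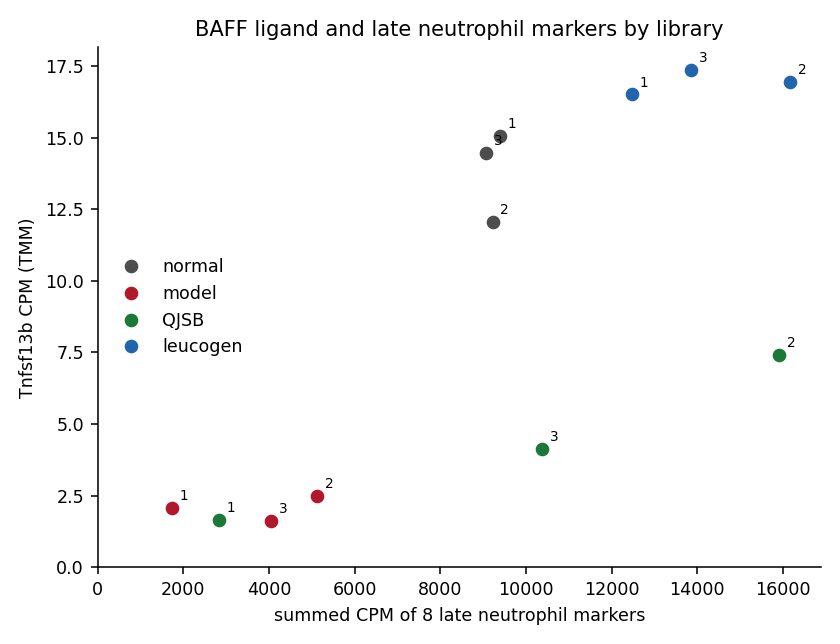
Tnfsf13b (vertical axis, CPM) against the summed CPM of 8 late neutrophil markers (horizontal axis) in the 12 libraries, coloured by group and numbered by replicate. The leucogen and normal libraries have between 12.1 and 17.4 CPM of Tnfsf13b, and QJSB 2 and QJSB 3 have 7.40 and 4.14 CPM at marker sums above those of the normal mice, although 2 and 4 of the 8 markers were below every normal mouse there.

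The genes that process the ligands, pass on the signal or answer to it were taken as lists. Of 7 genes for ligand processing and receptor shedding, 2 rose and 1 fell in model against normal, where 16.1% of all genes rose and 19.0% fell, with a median log2 fold change of 0.36 where that of all genes tested was 0.02. Those that rose were Aph1a (0.86) and Ncstn (0.71), subunits of gamma-secretase, the protease that sheds BCMA, and the one that fell was Adam10 (-0.61), a sheddase of TACI (edgeR adjusted p at most 0.0307). In the QJSB group 3 of the 7 were called higher than normal, against 18.0% of all genes, Aph1a at 1.17, Ncstn at 1.01 and Furin, the protease that cleaves BAFF and APRIL, at 0.94. Against the model group, 0 of the 7 were called with QJSB, where 0% of all genes were called in either direction. With leucogen 0 of the 7 were called, where 11.6% of all genes were called higher and 11.5% lower.

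Over all genes tested, 16.1% were called higher and 19.0% lower in model against normal, and the counts of all these lists are read against those shares. Of 12 adapters and kinases, 0 rose and 3 fell in model mice, near that share, namely Traf5 (-1.56, SE 0.19), Traf1 (-1.46, SE 0.43) and Birc2 (-0.79, SE 0.14), which bind TNF receptor tails or carry the ubiquitin ligase that holds the pathway off. Of 7 NF-kB subunits and inhibitors, 0 rose and 3 fell, namely Tnfaip3 (-1.57), Relb (-1.34) and Nfkb2 (-0.67). Relb and Nfkb2 encode the pair of subunits that BAFF receptor signalling activates. List medians were -0.13 and -0.36. Among 7 survival genes, 0 rose and 2 fell, again near the share over all genes: Bcl2l1 (-2.42, SE 0.14, edgeR adjusted p = 1.14e-05), which encodes Bcl-xL, and Pim2 (-1.78, SE 0.20, edgeR adjusted p = 0.000269), a kinase that sustains B cells.

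Some genes of these 3 lists were also called lower than normal in leucogen mice, for the adapters near the share over all genes. There 0 rose, and 2 of 12 adapters, 3 of 7 NF-kB genes and 4 of 7 survival genes were called lower, where 17.8% of all genes were called higher and 19.8% lower, among them Traf5 (-1.60), Relb (-1.48), Bcl2l1 (-1.88) and Pim2 (-2.34). Against the model group, 0 genes of these 3 lists were called under QJSB, where 0% of all genes were called in either direction. Under leucogen 0 were called as well, where 11.6% of all genes were called higher and 11.5% lower. Bcl2l1 is also abundant in erythroid precursors, and the summed CPM of 5 erythroid markers fell from 8747 to 9448 in normal mice to 54.2 to 594.9 in model mice, a part that was not tested.

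Among other members of the superfamily the pattern was mixed. Of 16 further ligands 9 were tested, and 0 rose and 2 fell in model mice, about the 19.0% of all genes called lower: Fasl (-3.04, SE 0.66), a death ligand of T and NK cells, and Ltb (-1.76, SE 0.41), a subunit of lymphotoxin. Ltb rose again under leucogen against the model group (1.41, SE 0.37, edgeR adjusted p = 0.0256), as did Tnf itself (1.40, SE 0.27, edgeR adjusted p = 0.00821). Of 21 further receptors 17 were tested, with 6 higher and 5 lower in model mice. Cd40, the B cell receptor for T cell help, fell by 3.32 on the log2 scale, Tnfrsf19 fell by 3.10 and Eda2r, a target of p53, rose by 2.13 (SE 0.63, edgeR adjusted p = 0.0257). Under QJSB 0 of these ligands and receptors were called against the model group, where 0% of all genes were called in either direction.

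**Figure D5:**
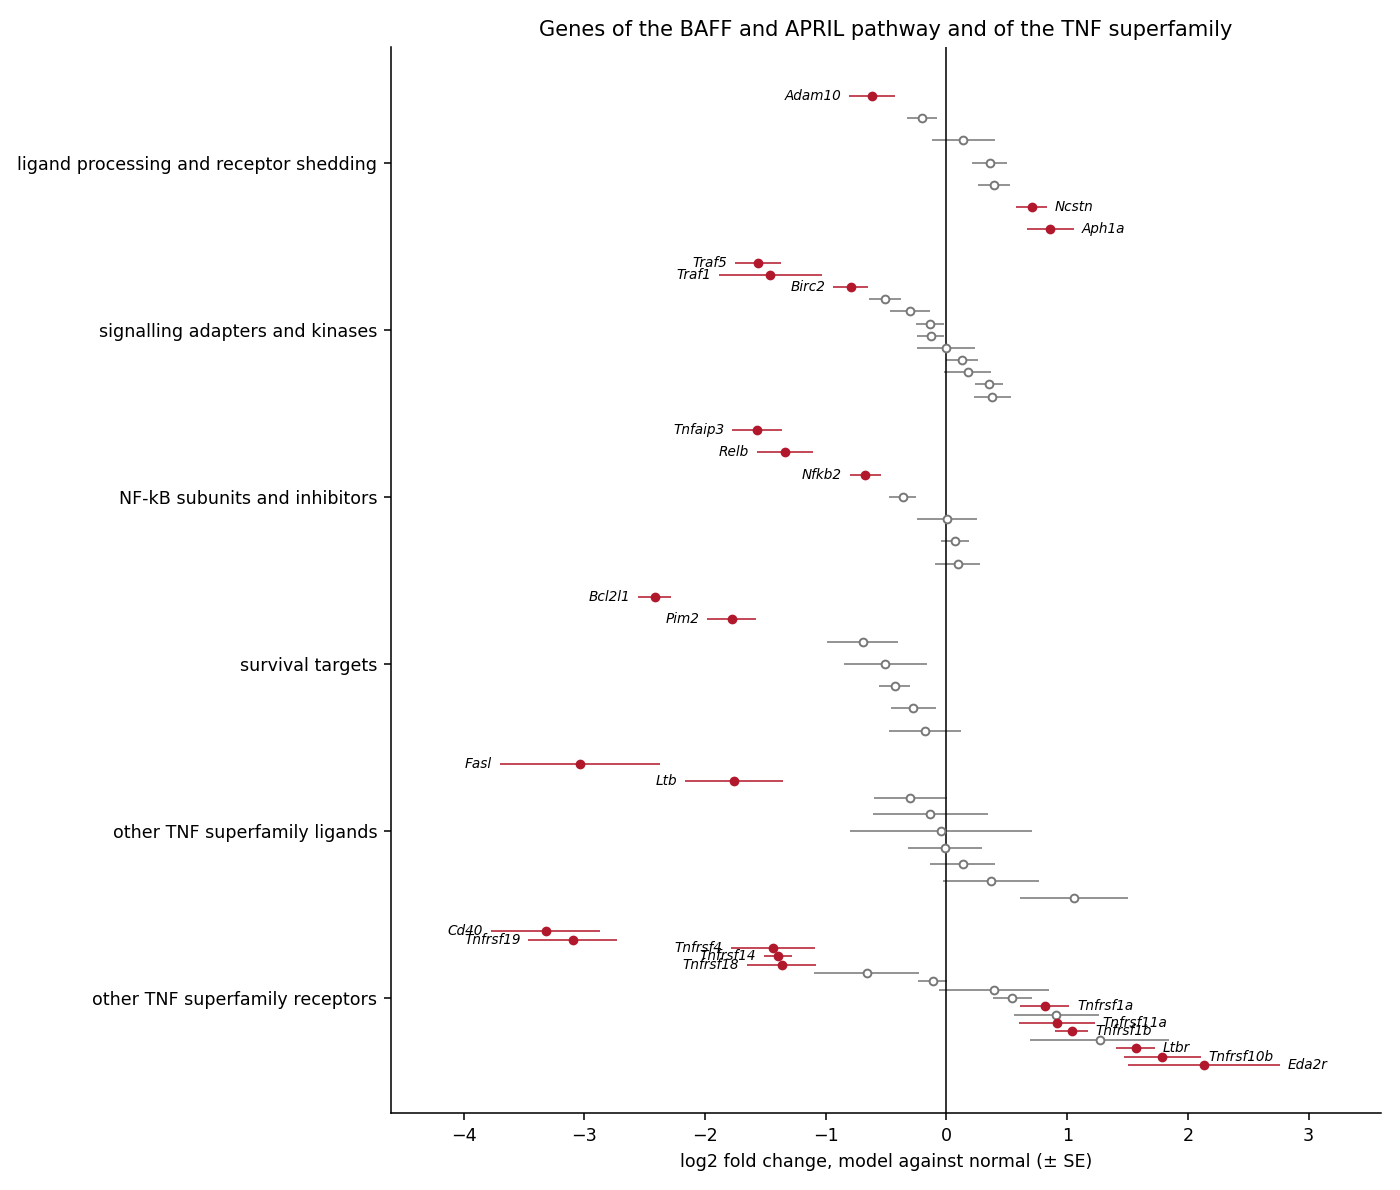
Log2 fold change ± SE of model against normal mice (horizontal axis) for the tested genes of 6 lists. Filled red symbols with names were called. The adapters, NF-kB genes, survival genes and other ligands that were called all lie below 0, and the other receptors that were called are 6 above and 5 below 0.

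Genes with the most similar pattern were sought among 11809 named genes by the root mean square difference of log2 CPM over the 12 libraries, each gene centred on its own mean. For Tnfsf13b the nearest were Sema4f at 0.40, Klra17 at 0.43 and Stk39 at 0.43, where the median gene was at 1.43. Klra17, a lectin-like receptor of the Ly49 family, averaged 41.4 CPM in normal, 8.36 in model, 8.71 in QJSB and 35.9 in leucogen mice. The 8 late neutrophil markers ran from 0.49 for Camp to 1.58 for Retnlg from Tnfsf13b, and the T cell marker Cd3d was at 0.51. For Tnfrsf13c the nearest were Slc6a20a at 0.54, Snx22 at 0.58 and Il2ra, the interleukin 2 receptor alpha chain, at 0.60, against a median of 2.75. For Tnfrsf13b the nearest were Gpalpp1, Pym1 and Dynlrb1, all at 0.13 against a median of 0.49, which reflects how little the gene varied. For Tnfsf13 alone the nearest were Znf41-ps at 0.28, Casp4 at 0.32 and Prrg1 at 0.36, against a median of 0.92.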

How the data were processed

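The authors removed ribosomal RNA from femoral marrow RNA of 12 mice and made strand-specific libraries. Reads were filtered (Seqtk) and mapped to GRCm38 (HISAT2), and the counting program and annotation are not given in the sources used here. The deposited counts are whole numbers per gene without normalization, and the FPKM values were computed by the authors. The column headings were read as groups by meaning and elimination. This was checked against the mean normalized counts of a supplementary table, where 300 of 300 listed genes lay within 1% under the reading used in each of 3 comparisons, and at most 10 of 300 under any other, so the grouping rests in part on values. Of the value columns 0 were left unused.

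Counts were tested with edgeR 4.0.16 under R 4.3.3 (TMM factors, the filterByExpr filter, then glmQLFTest after a robust glmQLFit), in 6 comparisons each fitted on its 6 libraries, with Benjamini-Hochberg adjustment over all genes tested and a fold cutoff of 1.5, after the study's own cutoff. Standard errors follow from the fold change and its F statistic. The test was tried on simulated data. Replicates are separate mice, and every pair of libraries in a group differed by more than counting noise (chi-square per degree of freedom 10.2 to 99.6). Depth was 11172547 to 18545198 counts. Alternatives were DESeq2 1.42.0, other scalings and filters, 1 fit of all 12 libraries, the replicate number as a block, limma 3.58.1 on log2(FPKM + 0.1) and log2(FPKM + 1), and each library left out. The study's cutoff under these alternatives, the sums over the Tnfsf13 locus and the joint omission of model 1 and QJSB 1 were chosen after the data had been seen. Replicate numbers met the rule for pairs, a correlation of deviations over 0.1 in every pair, in QJSB against model (0.453, 0.136 and 0.103) and QJSB against leucogen (0.174, 0.157 and 0.11) only. The members and gene lists were chosen with earlier results of these data known. Named genes were all members, the 3 genes of each list with the largest change among those called in model against normal, the 3 genes nearest in pattern to each member and genes overlapping a member. Adam10, Furin, Tnf and single marker genes were named after their values had been seen. RefSeq promoter windows were found for all 5 members. The list of ligand processing genes was shortened by 1 gene that is not reported here.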

Additional observations from a re-analysis of the deposited data

How the results depend on the processing

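Over 342 alternative values of the 22 member and comparison pairs tested, 310 kept their direction and side of the threshold, 14 lost the call, 8 gained it and 10 changed direction. All 10 were in QJSB against model, where no member was called. Tnfrsf13b there was 0.0017 with DESeq2, 0.0033 with 1 fit of all 12 libraries and -0.16 to 0.091 with 1 library left out. Tnfrsf13c was -0.99 to 0.58 with 1 library left out and 0.51 without model 1 and QJSB 1. Tnfsf13 was 0.085 when summed with Tnfsfm13 and 0.11 when Tnfsf12 was added. Requiring 10 counts in every library removed Tnfrsf13c and left 1 member called in model, QJSB and leucogen against normal. With 1 library left out, 1 to 3 members were called in leucogen against model, 1 to 2 in QJSB against normal and 1 to 3 in QJSB against leucogen. Total count scaling moved the median over all genes, on the log2 scale, from 0.02 to 0.14 in model against normal and from -0.05 to -0.22 in leucogen against model, and it changed the call of no member. In leucogen against model it called 30.2% of the changed genes higher, against 50.1% with TMM. Over all genes, QJSB against model gave 0 calls, but 18 with the replicate block, 8 with DESeq2, 3 without QJSB 1 and 23 without model 1 and QJSB 1. The replicate block changed no call of a member in any comparison, Tnfsf13b in QJSB against model being 0.89 with it (adjusted p = 0.503), and the count of members called stayed 2, 0, 2, 2, 2 and 3 in the 6 comparisons. Depth limits Tnfrsf17 everywhere and Tnfrsf13c in mice given cyclophosphamide, and 3 mice a group limit the rest.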
